A study of Homo sapiens with 2 samples.

Results

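The 10 genes described here make up a signalling set: the ligand genes INHBA, INHBB, BMP4, TGFB1 and TGFB2, the secreted antagonist FST, the receptor genes TGFBR1 and TGFBR2, and the feedback genes PMEPA1 and SMAD7. They were chosen by name, with the ratios of these same libraries in view, so their own values are a description and are not tested. Each of the 10 matched 1 of the 29452 rows in the deposited table, and all 10 were among the 14878 genes that reached 1 RPKM in at least 1 library. RPKM are reads per kilobase of exon, scaled to the assigned reads of the library. The study measured mRNA by sequencing in MDA-MB-231, an established human breast cancer cell line of triple-negative type, with a short hairpin against the kinase gene CDK14 (CDK14-sh, 1 library) and with a scramble control (1 library). The labels name no treatment, time point or number of clones, and both libraries come from the same line. Each group is 1 library, so no difference could be checked against replicates and no test was made. "Higher" and "lower" below refer to the CDK14-sh library against the scramble library, and to these libraries only. In such bulk RNA, fewer cells with a transcript and less of it per cell cannot be told apart.

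Activins, bone morphogenetic proteins (BMPs) and TGF-betas are secreted dimers of one ligand family. A ligand binds type II and type I receptor kinases. The type I receptor then phosphorylates receptor SMAD proteins, which enter the nucleus with SMAD4 and change transcription. Among the genes they induce are inhibitors of the pathway itself, such as SMAD7 and PMEPA1. In breast epithelium and breast cancer cells TGF-beta is known for growth arrest, for epithelial-to-mesenchymal transition and for invasion.

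The libraries held 15478156 (CDK14-sh) and 17217564 (scramble) reads assigned to genes. CDK14 stood at 0.548 RPKM (58 reads) in CDK14-sh and at 2.48 RPKM (292 reads) in scramble. Its exons share 201 bases with CLDN12 on the same strand, a row with 1034 and 1014 reads. They also share 47 bases with CTB-13L3.1 and 47 with AC006153.3. Markers known for the line were present: CD44 stood at 92.2 and 79.7 RPKM, VIM at 146 and 249 RPKM and MSN at 84.8 and 218 RPKM, in CDK14-sh and scramble. ESR1, PGR and CDH1 were at most 0.0379 RPKM. EPCAM (5.46 and 5.33 RPKM) and GATA3 (129 and 140 reads), listed as markers at or near 0 in this line, were not near 0. Summed marker levels in CDK14-sh and scramble were 2.03 and 1.78 RPKM for 5 fibroblast genes, with COL1A1 at 1.99 and 1.65 and with DCN and LUM listed at 0 in both. They were 0.777 and 0.698 for the leukocyte genes, 2 of 4 listed having a row, with PTPRC at 0.0232 and 0.0208, and 0.221 and 0.438 for 3 endothelial genes, with VWF listed at 0 in both. The part of these markers in the results was not tested. Mitochondrial genes took 17.1% of assigned reads in CDK14-sh and 14.5% in scramble, and with them left out the same 4 of the 10 genes passed 2-fold.

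Of the 10 genes, 4 differed by at least 2-fold: INHBA and PMEPA1 were higher, and INHBB and BMP4 were lower. Another pair, TGFB2 and TGFBR1, was lower by between 1.5-fold and 2-fold, and the other 4 genes lay within 1.5-fold. Folds are ratios of RPKM. Passing 2-fold was decided on the log2 ratio after adding 0.1 RPKM to each level, which pulls the ratio of a low gene towards equality. Among all 14878 genes, 3.21% passed 2-fold as higher and 3.47% as lower, and at 1.5-fold these shares were 9.11% and 9.55%. Every one of the 10 had at least 166 reads in its higher library, and among the 10088 genes with as many, 0.615% were 2-fold higher and 2.02% 2-fold lower. The median log2 ratio of the 10 genes was -0.07 and that of all 14878 genes was 0.04, while the median absolute log2 ratios were 0.85 and 0.26. The set was chosen with the ratios known, so nothing is read from these shares about it.

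**Figure D1:**
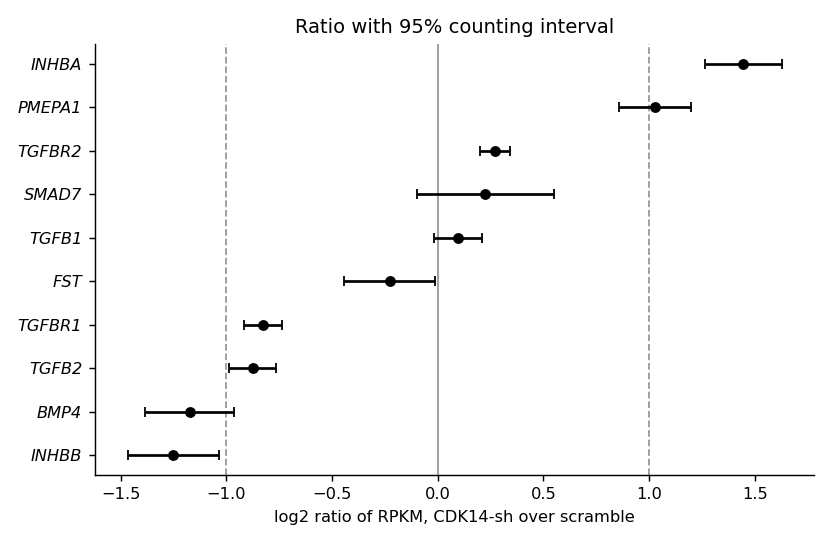
Ratio of RPKM, CDK14-sh over scramble, on a log2 axis for each of the 10 genes; points are the ratio of 1 library to 1 library, bars the 95% counting interval, and dashed lines mark 2-fold. INHBA lies highest at 2.72-fold higher and INHBB lowest at 2.38-fold lower, and the intervals of TGFB1 and SMAD7 cross the solid line of equal levels.

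The activin beta chains differed in opposite directions. INHBA encodes inhibin beta A, the chain of activin A. Its row lies on chromosome 7 from 41667168 to 41705834 on the minus strand (GRCh38). INHBA stood at 6.79 RPKM (872 reads) in CDK14-sh and at 2.49 RPKM (356 reads) in scramble. That is 2.72-fold higher, with a 95% counting interval of 2.41 to 3.09, and 98.5% of the 14878 genes had a lower log2 ratio. Intervals here and below are Clopper-Pearson intervals on the reads, and since PCR copies are not independent molecules they cover counting error only. INHBB encodes inhibin beta B, the chain of activin B, from a plus-strand row spanning 120346143 to 120351808 of chromosome 2. INHBB stood at 4.98 RPKM (247 reads) in CDK14-sh and at 11.9 RPKM (654 reads) in scramble, which is 2.38-fold lower (2.05 to 2.77). Only 2.14% of genes had a lower log2 ratio than INHBB.

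The order of the pair changed with the library. In scramble INHBB was 4.76-fold above INHBA per kilobase, and in CDK14-sh INHBA was 1.36-fold above INHBB. INHBA made up 57.7% of the summed RPKM of the pair in CDK14-sh (54.2% to 61.2%) and 17.4% in scramble (15.5% to 19.3%). The sum itself was 11.8 RPKM in CDK14-sh and 14.3 RPKM in scramble. These levels rest on the summed exon length of each row, 8302 bases for INHBA and 3204 for INHBB. With the length of 1 GENCODE transcript each (6064 and 3204 bases, those with the longest 3' untranslated region), the INHBA shares were 65.1% and 22.3%. INHA, which encodes the alpha chain that turns activin chains into inhibins, had 2 reads in CDK14-sh and 3 in scramble.

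The upstream sequences of these paralogous genes are shown because the genes differed in opposite directions. Each is the 250 bases before a RefSeq start (GRCh38.p14), 5′ to 3′ on the gene's strand, with capitals marking the 4-base SMAD-binding word GTCT or its reverse complement AGAC.
INHBA, chr7:41703091-41703340, minus strand: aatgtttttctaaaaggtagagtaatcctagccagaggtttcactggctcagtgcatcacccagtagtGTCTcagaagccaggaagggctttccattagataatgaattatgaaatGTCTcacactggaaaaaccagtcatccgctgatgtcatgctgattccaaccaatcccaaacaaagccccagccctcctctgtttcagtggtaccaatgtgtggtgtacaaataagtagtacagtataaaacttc
INHBB, chr2:120345886-120346135, plus strand: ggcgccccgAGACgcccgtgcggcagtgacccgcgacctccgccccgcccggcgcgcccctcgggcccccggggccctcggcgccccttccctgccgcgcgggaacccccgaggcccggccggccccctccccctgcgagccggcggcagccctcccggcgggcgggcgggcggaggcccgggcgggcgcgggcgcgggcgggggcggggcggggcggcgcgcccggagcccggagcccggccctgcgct
The INHBA window lies inside the span of the INHBA row, whose 5′ end is at 41705834, while the INHBB window lies before its row (start 120346143). The INHBA window held 42.8% G and C and the word at 2 places. The INHBB window held 89.6% G and C and the word at 1 place, and 99.97% of all 35116 windows of this length had a lower share of G and C. The median over all windows was 58%. All 10 genes matched the promoter table, with 25 windows between them, since a gene can have several starts. GTCT or AGAC occurred in 20 of the 25 windows, in 9 genes (all but TGFB1), and in 77.5% of all windows. The longer word CAGACA, on either strand, occurred in 5 of the 25, in windows of BMP4, PMEPA1, TGFB2 and TGFBR1, and in 13.6% of all windows. Every CAGACA also holds AGAC. The palindrome GTCTAGAC, which holds both short words, occurred in 0 of the 25 and in 0.182% of all windows. A match describes letters in a window and does not show that a SMAD binds there.

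FST encodes follistatin, a secreted protein that binds activins and keeps them from their receptors. Its plus-strand row spans 53480409 to 53487134 of chromosome 5. FST stood at 6.90 RPKM (317 reads) in CDK14-sh and at 8.08 RPKM (413 reads) in scramble, 1.17-fold lower (1.01 to 1.36). Set against INHBA alone, FST was 3.24-fold above it in scramble and 1.02-fold above it in CDK14-sh. Set against the summed RPKM of INHBA and INHBB, FST was 0.563 of the sum in scramble and 0.586 in CDK14-sh. Both comparisons rest on summed exon lengths (2969 bases for FST, 8302 for INHBA). They were not repeated with transcript lengths (2538 and 6064 bases), which would change these values. A shift between the libraries was thus seen for FST against INHBA. The order of FST and INHBA in CDK14-sh, and the small difference against the sum, depend on the lengths used and are not read.

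**Figure D2:**
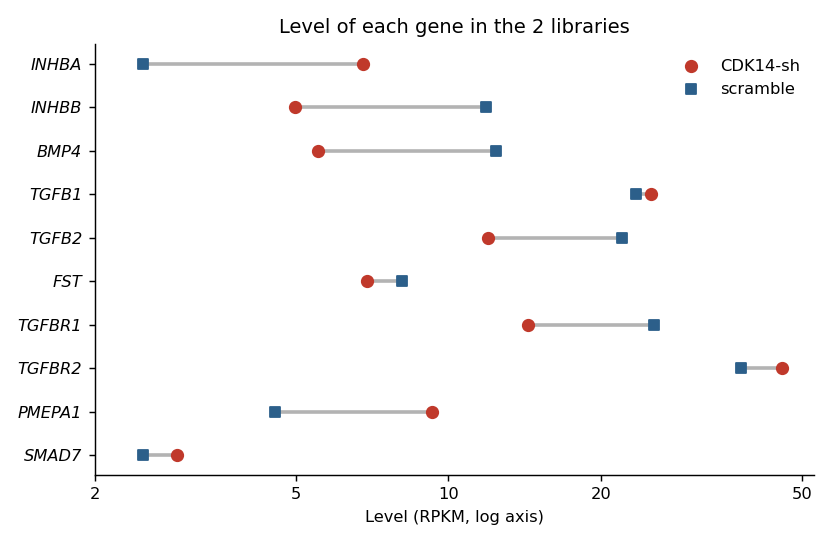
Level of each of the 10 genes in RPKM on a log axis; circles are the CDK14-sh library, squares the scramble library, and a grey line joins the pair. INHBA and PMEPA1 lie to the right of scramble by over 2-fold, and INHBB and BMP4 to the left, while TGFB1 and SMAD7 nearly coincide.

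BMP4 encodes a BMP ligand that signals through SMAD1, SMAD5 and SMAD9. It lies on chromosome 14 from 53949736 to 53958761 on the minus strand. BMP4 stood at 5.51 RPKM (263 reads) in CDK14-sh and at 12.4 RPKM (660 reads) in scramble, 2.26-fold lower (1.95 to 2.61). BMP2, the other BMP ligand gene that reached 1 RPKM, stood below BMP4 in both libraries and differed in the opposite direction. BMP2 stood at 1.22 RPKM (68 reads) in CDK14-sh and 0.355 RPKM (22 reads) in scramble, 3.44-fold higher (2.10 to 5.84), a ratio that fell below 2-fold (log2 0.71) with 1 RPKM added to each level. The summed RPKM of BMP2 and BMP4 was 6.73 in CDK14-sh and 12.8 in scramble, and BMP2 made up 18.1% and 2.77% of it.

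The TGF-beta ligands did not share a direction either. TGFB1, on chromosome 19 from 41301587 to 41353911 on the minus strand, encodes TGF-beta 1. It stood at 25.1 RPKM (1259 reads) in CDK14-sh and at 23.5 RPKM (1311 reads) in scramble. The ratio was 1.07, with a counting interval from 0.988 to 1.16 that holds equal levels. Its direction turned with the scale: the log2 ratio was 0.09 in RPKM and -0.06 in TPM, where the RPKM of both libraries are scaled to the same total. That rescaling lowered the median log2 ratio over all genes by 0.15, from 0.04 to -0.11, and relative to the median gene TGFB1 lay at 0.05. Its exons share 215 bases with HNRNPUL1 on the opposite strand, which stood at 78.7 and 77.8 RPKM. Whether counting used strand is not given in the labels, so reads in such shared stretches cannot be assigned to 1 gene.

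TGFB2, at 218346235 to 218444619 of chromosome 1 (plus strand), encodes TGF-beta 2. Its level was 12.0 RPKM (956 reads) in CDK14-sh and 22.01 RPKM (1952 reads) in scramble, 1.84-fold lower (1.70 to 1.99). TGFB2 made up 32.3% of the summed RPKM of TGFB1 and TGFB2 in CDK14-sh (30.5% to 34.2%) and 48.3% in scramble (46.6% to 50.1%). The row TGFB2-OT1, of 1371 bases, lies wholly within TGFB2 exons on the same strand and held 470 and 858 reads. If those reads were counted in both rows, the rest of TGFB2 held 486 and 1094 reads, 2.02-fold lower (1.82 to 2.26). In TPM the log2 ratio of TGFB2 was -1.03, past 2-fold. TGFB3, the remaining isoform, had 37 and 23 reads and stayed below 1 RPKM.

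**Figure D3:**
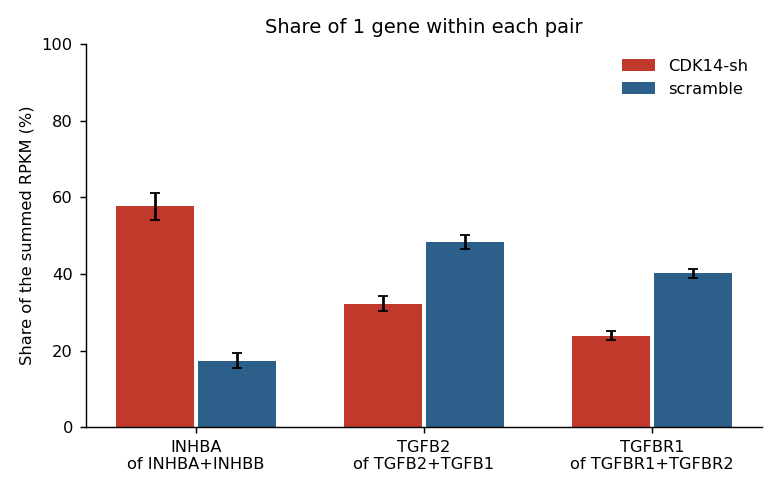
Share of 1 gene in the summed RPKM of a pair, in percent, for each library; bars start at 0 and error bars are 95% counting intervals. The INHBA share was 57.7% in CDK14-sh against 17.4% in scramble, while the shares of TGFB2 and TGFBR1 were smaller in CDK14-sh.

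The receptor pair for TGF-beta differed in the type I chain. TGFBR1, at 99104038 to 99154192 of chromosome 9 (plus strand), encodes the type I receptor kinase that phosphorylates SMAD2 and SMAD3. TGFBR1 stood at 14.4 RPKM (1521 reads) in CDK14-sh and at 25.4 RPKM (2998 reads) in scramble, 1.77-fold lower (1.67 to 1.89). TGFBR2, at 30606502 to 30694142 of chromosome 3 (plus strand), encodes the type II receptor that binds ligand and activates TGFBR1. It was the most abundant of the 10 genes, at 45.7 RPKM (3329 reads) in CDK14-sh and 37.9 RPKM (3071 reads) in scramble, 1.21-fold higher (1.15 to 1.27). TGFBR2 exceeded TGFBR1 by 1.49-fold in scramble and by 3.18-fold in CDK14-sh. The TGFBR1 share of the pair was 23.9% (22.8% to 25.02%) in CDK14-sh and 40.2% (38.9% to 41.4%) in scramble.

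The feedback genes differed from each other. PMEPA1, on chromosome 20 from 57648392 to 57711536 on the minus strand, encodes a membrane protein that is induced by TGF-beta and holds receptor SMADs away from the receptor. PMEPA1 stood at 9.28 RPKM (807 reads) in CDK14-sh and at 4.55 RPKM (440 reads) in scramble, 2.04-fold higher (1.81 to 2.30). Its place past 2-fold was narrow: the log2 ratio was 1.01, and 0.97 after centring on the median gene, 0.89 with 1 RPKM added and 0.87 in TPM. Its exons share 343 bases with NKILA on the opposite strand, which had 8 and 6 reads. SMAD7, on chromosome 18 from 48919853 to 48950711 on the minus strand, encodes the inhibitory SMAD that blocks the type I receptor. It had the lowest level of the 10, at 2.90 RPKM (166 reads) in CDK14-sh and 2.49 RPKM (158 reads) in scramble. The ratio of 1.17 had an interval from 0.934 to 1.46 that holds equal levels. That interval covers counting error only, and 1 library per group cannot show whether SMAD7 differs.

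Per kilobase, the receptors and TGF-beta ligands stood highest in both libraries. The orders below rest on the summed exon length of each row. They were not repeated with transcript lengths, which would change the order of some neighbours. The order in scramble was TGFBR2, TGFBR1, TGFB1, TGFB2, BMP4, INHBB, FST, PMEPA1, INHBA and SMAD7. The separate counting intervals met between TGFBR1 and TGFB1, TGFB1 and TGFB2, BMP4 and INHBB, and INHBA and SMAD7. Intervals that meet do not show equal levels, and the order of such neighbours was not tested. The order in CDK14-sh was TGFBR2, TGFB1, TGFBR1, TGFB2, PMEPA1, FST, INHBA, BMP4, INHBB and SMAD7. There the intervals met between FST and INHBA and between BMP4 and INHBB. INHBA and PMEPA1 thus stood above INHBB and BMP4 in CDK14-sh and below them in scramble.

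**Figure D4:**
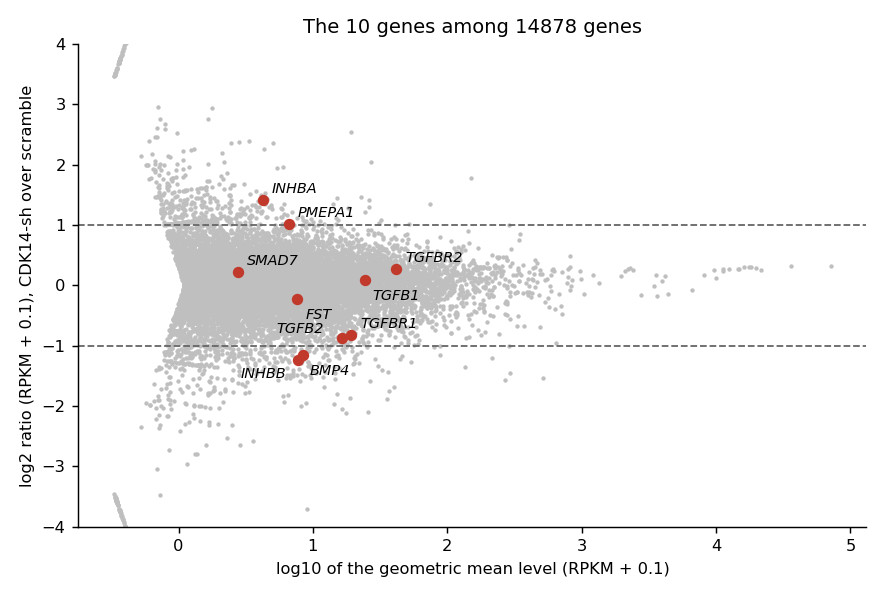
The 10 genes (red) among the 14878 genes that reached 1 RPKM (grey), by log10 of the geometric mean level and log2 ratio, both with 0.1 RPKM added; dashed lines mark 2-fold and 75 genes fall outside the plotted range of 4 log2 units. INHBA and PMEPA1 lie above the upper line (PMEPA1 at 1.01) and INHBB and BMP4 below the lower one.

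The 3' untranslated regions (3' UTRs) were searched for 4 words of 7 bases that had been picked from the ratios of these same libraries, so their presence is a description. They are GTCATGC with its overlapping partner TCATGCA, and TCCATAA with its overlapping partner ATCCATA. Of the 10362 genes searched, with the longest 3' UTR of each in GENCODE v29 and the sense strand only, 25.1% held at least 1 of the 4. Of the 10 genes, 5 held one. GTCATGC occurred in TGFB2 and TGFBR1, the pair lower by 1.5-fold to 2-fold, and in 6.35% of all genes searched. Among genes with a 3' UTR within 25% of the same length, GTCATGC occurred in 10.8% (the length of TGFB2) and 14.7% (that of TGFBR1). TCATGCA, which shares 6 letters with GTCATGC, occurred in INHBA, PMEPA1, SMAD7 and TGFBR1, and in 10.6% of all genes. ATCCATA occurred in 8.34% of all genes and in 0 of the 10. The share for TCCATAA was 10.1%, again with 0 of the 10.

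TCATGCA was held by INHBA and PMEPA1, the highest ratios of the set, but also by TGFBR1, which was lower, and by SMAD7. INHBB and BMP4, the lowest ratios, held none of the 4 words, and neither did FST, TGFB1 and TGFBR2. Words and genes were both chosen with these ratios known, so nothing is read from how they line up. The sites are shown so that the genes can be compared, each as 29 bases of the 3' UTR on GRCh38, 5′ to 3′, with the word in capitals.
INHBA, TCATGCA, chr7:41687026-41687054, minus strand: gaccttggataTCATGCAtgtgggaaggt
TGFB2, GTCATGC, chr1:218444128-218444156, plus strand: tcacttcagaaGTCATGCtttaaagcaca
TGFBR1, TCATGCA, chr9:99149851-99149879, plus strand: aggaacataatTCATGCAattgtattttg
TGFBR1, GTCATGC, chr9:99153683-99153711, plus strand: cgttggaatgaGTCATGCcatatgtagtt
PMEPA1, TCATGCA, chr20:57650144-57650172, minus strand: gccactcgagcTCATGCAtgtgaaacgtg
SMAD7, TCATGCA, chr18:48921266-48921294, minus strand: gtgcttgctttTCATGCAaactctttggt
The 3' UTR searched was 4536 bases long in INHBA, 4887 in TGFBR1, 3661 in PMEPA1, 3257 in TGFB2, 1934 in INHBB and 296 in BMP4. Among genes within 25% of those lengths the share with at least 1 word was 53.6%, 55.2%, 46.4%, 43.3%, 26.4% and 4.5%, in that order. For SMAD7, FST, TGFB1 and TGFBR2 the lengths were 1519, 1418, 729 and 2543 bases. Their shares were 21.0%, 20.5%, 9.51% and 34.3%. What part these sites have in any ratio was not tested.

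The other genes of the pathway were grouped in 8 lists by role, chosen with earlier results of these data known. Of 33 ligand genes, 23 had a row and 8 passed 1 RPKM. Of these 8, 2 were 2-fold higher (INHBA and BMP2) and 2 were 2-fold lower (INHBB and BMP4), with a median log2 ratio of 0.03. The sign of that median turned with the setting: it was -0.01 after median centring, -0.14 in TPM, -0.20 with no level filter, -0.45 with at least 166 reads and -0.87 with at least 5 RPKM. GDF9, a growth factor best known from the oocyte, was 1.63-fold higher (1.12 to 2.40) from 72 and 49 reads, and its row shares exons with UQCRQ. GDF11 (267 and 303 reads) had a counting interval that holds equal levels. The ligands that differed by 2-fold lay in both directions, but INHBA, INHBB and BMP4 were chosen with their ratios known. Nothing is therefore read from this spread. BMP2, the only other ligand past 2-fold, rests on 68 reads in CDK14-sh and 22 in scramble.

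Of the 10 receptor and co-receptor genes that passed (of 16 with a row), 0 were 2-fold higher and 1 was 2-fold lower, with a median of -0.17 that was 0.05 for the 4 with at least 5 RPKM. That 1 was TGFBR3, which encodes betaglycan, a co-receptor that presents TGF-beta 2 to TGFBR2 and binds inhibin. It stood at 0.883 RPKM (119 reads) in CDK14-sh and 3.22 RPKM (482 reads) in scramble, 3.64-fold lower (2.97 to 4.49). TGFB2, TGFBR1 and TGFBR3 were thus all lower in CDK14-sh, while TGFBR2 was 1.21-fold higher. RGMB, a BMP co-receptor whose exons overlap antisense rows, was 1.24-fold higher (1.17 to 1.32), at 22.6 and 18.2 RPKM. ACVR2B, an activin type II receptor, was 1.22-fold higher (1.06 to 1.41), at 1.65 and 1.35 RPKM.

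None of the 7 SMAD genes that passed reached 2-fold, 0 in either direction, and their median was -0.19. SMAD5, a BMP receptor SMAD, stood at 5.35 RPKM in CDK14-sh and 8.88 in scramble, 1.66-fold lower (1.52 to 1.82). SMAD6, the inhibitory SMAD of BMP signalling, stood at 0.558 and 1.00 RPKM, 1.80-fold lower (1.35 to 2.41), and SMAD1 was 1.36-fold higher (1.06 to 1.75). SMAD3, a receptor SMAD which carries activin and TGF-beta signals, stood at 18.9 and 18.2 RPKM and was named after its values were seen. The rows of SMAD1 and SMAD5 overlap antisense rows.

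Secreted antagonists, 7 of them passing, had 0 members past 2-fold and a median of -0.20. CHRDL1, a BMP antagonist related to chordin, stood at 14.8 RPKM in CDK14-sh and 25.99 in scramble, 1.76-fold lower (1.62 to 1.91). NBL1, another BMP antagonist, was 1.38-fold higher (1.12 to 1.71), and BMPER 1.31-fold lower (1.06 to 1.61). Reads of NBL1 cannot be told apart from those of the readthrough row MINOS1-NBL1.

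Of 13 intracellular and membrane inhibitors that passed, 2 were 2-fold higher and 0 lower, with a median of 0.12. Beside PMEPA1, which was chosen with its ratio known, the other was SMURF2, a ubiquitin ligase that is recruited to TGF-beta receptors by SMAD7. Its exons share 167 bases with CEP95. SMURF2 stood at 73.7 RPKM (7945 reads) in CDK14-sh and 36.5 RPKM (4377 reads) in scramble, 2.02-fold higher (1.95 to 2.10), and like PMEPA1 it fell just short of 2-fold after median centring (log2 0.97), with 1 RPKM added (0.99) and in TPM (0.86). TGIF2, a SMAD co-repressor, was 1.68-fold higher (1.52 to 1.85), and its row overlaps a readthrough row. In these 3 settings 0 of the 13 were past 2-fold, and in TPM the median of the list was -0.03, which is above the median of all genes on that scale.

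Genes for storing and activating latent TGF-beta had a median of 0.19, with 1 of 9 2-fold higher and 0 lower. FURIN, the convertase that cleaves TGF-beta and activin precursors, stood at 7.26 RPKM (531 reads) in CDK14-sh and 2.90 RPKM (236 reads) in scramble, 2.50-fold higher (2.14 to 2.93). NRROS, which tethers latent TGF-beta, was 1.88-fold higher (1.41 to 2.52), with a row that overlaps PIGX. THBS1, encoding thrombospondin 1, an activator of latent TGF-beta with 692 bases shared with antisense rows, stood at 164 and 104 RPKM, 1.58-fold higher (1.55 to 1.61).

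Genes known to be induced by TGF-beta or activin had a median of 0.25, and of 0.09 in TPM, where that of all genes was -0.11. With no level filter 4 of 20 were 2-fold higher and 1 was 2-fold lower. Among the 16 that reached 1 RPKM, 12 lay above 0, 4 below 0 and 0 at 2-fold lower. Of all 14878 genes, 54.7% lay above 0, and 2 of the 12 above and 1 of the 4 below had counting intervals that hold equal levels. PMEPA1 and ANGPTL4 were among those 2-fold higher. ANGPTL4 had 49 and 25 reads, 2.18-fold higher (1.32 to 3.68), and its row overlaps RAB11B-AS1 by 1 base. It did not pass 2-fold with 1 RPKM added (log2 0.52), after median centring (0.96) or in TPM (0.91). TGFBI was 1.51-fold higher (1.36 to 1.66). CTGF, another gene of this list, stood at 90.8 and 95.2 RPKM, and IL11 at 22.98 and 28.99 RPKM, 1.26-fold lower (1.16 to 1.37), both named after their values were seen.

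Of the genes known to be induced by BMP, 11 had a row and 6 passed 1 RPKM. Of these 6, 0 were 2-fold higher and 2 were 2-fold lower (ID1 and ID4), with a median of -0.83. Across settings the median ran from -1.07 with at least 5 RPKM to -0.51 with at least 166 reads, each leaving 2 genes. It was -0.55 with 1 RPKM added. Log2 ratios were below 0 in 5 of the 6, against 45.3% of all genes, and BAMBI, named after its values were seen, was 1 of these 5 at 108 and 122 reads, with a counting interval that holds equal levels. Of the 5 genes under 1 RPKM, 3 lay above 0 and 2 below, and 4 had intervals that hold equal levels. ID1 stood at 5.45 RPKM (104 reads) in CDK14-sh and 12.9 RPKM (274 reads) in scramble, 2.37-fold lower (1.88 to 2.998). ID4 was 3.72-fold lower (2.48 to 5.74), from 30 and 124 reads, and ID3 1.90-fold lower (1.44 to 2.54), from 76 and 161. The ID genes encode helix-loop-helix proteins that keep basic helix-loop-helix factors from DNA. SMAD7, which stands in this list and in 3 others, was the 1 gene of the 6 above 0, and its interval also holds equal levels. SMAD7 and other shared genes mean that the lists are not separate results.

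**Figure D5:**
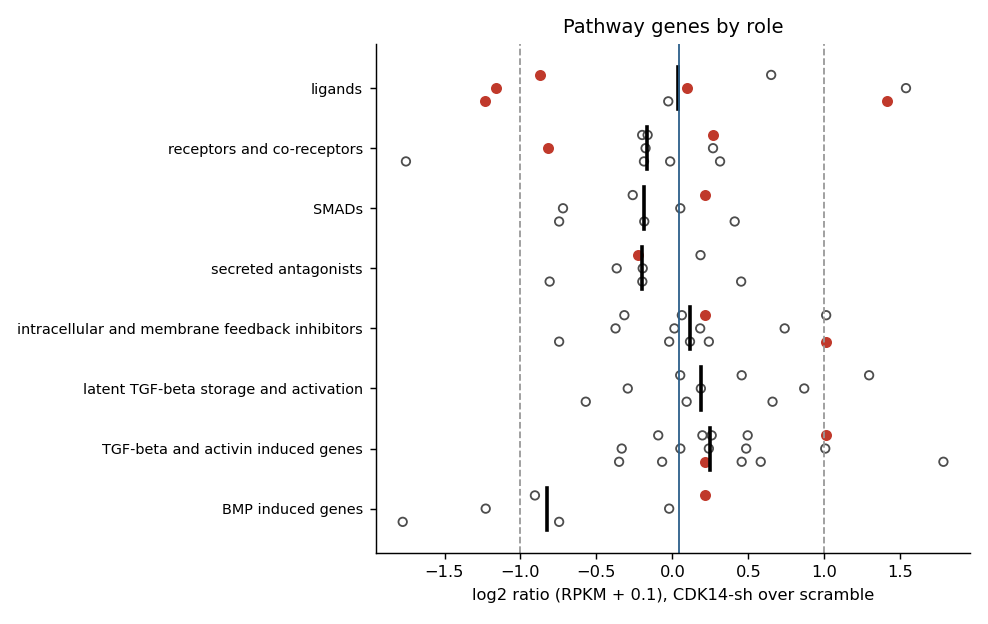
Log2 ratio, CDK14-sh over scramble with 0.1 RPKM added, of each pathway gene that reached 1 RPKM, by list; red points are the 10 genes, open circles other genes, black bars list medians, the blue line the median of all genes (0.04) and dashed lines 2-fold. Ligands spread over both sides, BMP induced genes have a median of -0.83, and TGF-beta and activin induced genes one of 0.25.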

How the data were processed

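A stranded mRNA kit was used on total RNA, per the labels' protocols. The file deposited by the authors gives RPKM for both libraries, beside exon positions and summed exon lengths, per the file headers. Bowtie 0.12.2, featureCounts and Subread 1.5.1 are listed in the submitters' processing notes, as are GRCh38 and mm8, without saying which was used for what. How reads on overlapping genes, several places or either strand were treated is not given in the sources. Start and end of 9 of the 10 gene rows equal those of GENCODE v29 on GRCh38 (SMAD7 differs), so coordinates are given on GRCh38.

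Reads per gene were recovered by multiplying RPKM by exon length and dividing by the smallest step of the library, and 100% of nonzero values came out whole within 0.01 read. Ratios used a pseudocount of 0.1 RPKM, a level filter of 1 RPKM in the higher library and thresholds of 2-fold and 1.5-fold. The 10 genes and the lists were chosen with earlier results of these data known. Beside the 10 genes and CDK14, up to 3 genes of each list with the largest absolute log2 ratio were named. One gene that this rule names is not reported here. INHA, TGFB3, SMAD3, BAMBI, CTGF and IL11 were named after their values were seen. The calculation was tested on simulated data. Promoter sequences are from RefSeq (GRCh38.p14), and protein sequences were not used here. Software was Python 3.11.15 with numpy 2.4.6, scipy 1.17.1, pandas 2.3.3 and matplotlib 3.10.9.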

Additional observations from a re-analysis of the deposited data

How the results depend on the processing

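No paired analysis was possible because there was a single library in either group, and none could be left out. Of 11 alternatives, 1 (a minimum of 166 reads, the fewest of any of the 10 genes in its higher library) was chosen after seeing the data, as was the removal of TGFB2-OT1 reads. INHBA was 2-fold higher and INHBB and BMP4 2-fold lower in all 11, with log2 ranges of 1.16 to 1.46, -1.39 to -1.10 and -1.32 to -1.04. The 2 genes counted as 2-fold higher became 1 with TPM, with median centring, with a pseudocount of 1 RPKM and over rows that overlap none, PMEPA1 being the gene lost. In the last it was not counted because its row overlaps another. The 2 counted as lower became 4 at 1.5-fold. Across alternatives the 10 genes gave 96 values, 91 of them inside the counting interval and 5 outside, and 0 of those past 2-fold changed sign. Settings that only change which rows are kept leave the ratio of a kept gene as it was, so those values could not move. The 5 outside were INHBA with 1 RPKM added, and TGFB1, TGFB2, TGFBR1 and TGFBR2 in TPM. Over all genes, 478 were higher and 516 lower. A 1.5-fold threshold gave 1355 and 1421, no level filter 2173 and 2043, and a level of 5 RPKM 83 and 177. A minimum of 30 reads gave 166 and 290, and one of 166 reads 62 and 204. Adding 1 RPKM gave 176 and 259, and rows that overlap none 307 and 315. TPM gave 609 and 1128, among 17068 genes passing the level and with a shift of -0.15 in the median log2 ratio. Depth limits SMAD7 most among the 10 genes.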
